A study of Mus musculus with 6 samples.

Results

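The 9 genes described here belong to dopamine signalling. They were chosen by name from the 33696 genes of the count tables, and followed through the cells at the back of the mouse eye: Th and Ddc (synthesis), Slc18a2 and Slc6a3 (storage and reuptake), Drd1, Drd2, Drd4 and Drd5 (receptors) and Maoa (breakdown). The tissue was the posterior eye cup, that is sclera, choroid and retina, left after the lens, cornea and iris-ciliary body were cut away, and it was profiled by droplet single-cell RNA sequencing in a study of ciliary muscle contraction and myopia. In the tropicamide group (12 mice) the ciliary muscle was relaxed with tropicamide, a muscarinic receptor antagonist, given as 6 rounds of eye drops at 10 min intervals and followed by 1 h of waiting. In the saline group (12 mice), which stands for the contracted muscle, saline drops were given at that same interval, and neither their number nor a waiting time is stated. The right eyes of 4 mice were combined for 1 library, which gave 3 libraries per group, and the labels do not give strain, age or genotype. The comparison is therefore one of drug drops against saline drops, and the state of the muscle itself was not measured in these files.

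Dopamine is made from tyrosine by tyrosine hydroxylase (Th) and aromatic L-amino acid decarboxylase (Ddc), is loaded into vesicles by the vesicular monoamine transporter (Slc18a2), and is taken back up by the dopamine transporter (Slc6a3). In the retina it is released by a sparse type of amacrine cell in response to light, and it acts on D1-family receptors (Drd1, Drd5), which raise cyclic AMP, and on D2-family receptors (Drd2, Drd4), which lower it. Retinal dopamine is widely studied in myopia because it has been linked to the light-dependent restraint of eye growth. Monoamine oxidase A (Maoa), on the outer mitochondrial membrane, breaks dopamine, serotonin and noradrenaline down.

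The sequence just before the transcription start is shown for the receptor genes whose cellular distribution differs most below, so that the 3 starts can be set side by side. They are 250 bases of RefSeq sequence on the mouse build GRCm38.p6, printed 5′ to 3′ on the strand of the gene, with GC boxes (GGGCGG, or CCGCCC on the other strand) in capitals. The Drd4 window lies at chr7:141291768-141292017 on the plus strand and overlaps an annotated Drd4 exon by 12 bases. The Drd2 window lies at chr9:49340153-49340402 on the plus strand, and the Drd1 window lies at chr13:54054781-54055030 on the minus strand, before the inner of its listed starts.
Drd4: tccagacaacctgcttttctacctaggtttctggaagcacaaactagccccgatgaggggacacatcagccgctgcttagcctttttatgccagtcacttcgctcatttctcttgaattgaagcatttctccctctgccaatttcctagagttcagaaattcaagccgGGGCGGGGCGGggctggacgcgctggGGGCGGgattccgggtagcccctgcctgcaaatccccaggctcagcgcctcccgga
Drd2: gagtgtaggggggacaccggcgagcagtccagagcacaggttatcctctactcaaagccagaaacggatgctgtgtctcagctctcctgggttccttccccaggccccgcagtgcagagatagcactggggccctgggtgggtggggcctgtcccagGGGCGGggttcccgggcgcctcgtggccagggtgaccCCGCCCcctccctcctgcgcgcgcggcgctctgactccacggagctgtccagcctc
Drd1: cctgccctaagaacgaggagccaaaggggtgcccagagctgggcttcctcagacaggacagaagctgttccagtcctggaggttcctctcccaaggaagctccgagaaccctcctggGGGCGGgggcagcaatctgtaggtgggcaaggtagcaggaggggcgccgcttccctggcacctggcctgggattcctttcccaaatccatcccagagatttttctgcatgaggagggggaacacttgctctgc
All 9 genes were matched in that table, with 11 windows in all. The Drd4 window holds 3 GC boxes, of which the first pair shares 1 base, the Drd2 window holds 2, and the printed Drd1 window holds 1. The window before the outer Drd1 start, which overlaps an annotated Drd1 exon by 47 bases and is not printed, holds 0. A GC box is present in 32.7% of the 32851 windows of this length, so its presence is common. The core letters bound by the photoreceptor factors CRX and OTX2 (TAATCC, or GGATTA) are present in 6.25% of windows and in none of those of the 9 genes. The E-box CACGTG (6.02% of windows) was found only before Slc6a3 and the cyclic AMP response element TGACGTCA (1.55% of windows) only before Th. These matches describe letters in a window and no binding was measured.

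The 6 libraries held 66434 barcodes, 9472 to 13518 each, with 30761887 to 49477707 UMIs (unique molecular identifiers, 1 for each transcript molecule captured), and 60096 cells were kept. Pairs of libraries shared 22 to 64 barcodes, at most 0.504% of the smaller library. Rods, the light sensors for dim light, made up 72.3 to 83.3% of cells after tropicamide and 81.3 to 91.5% after saline, and the retinal pigment epithelium (RPE)-like class made up 3.22 to 5.72% and 0.744 to 1.93%. Classes were named from marker genes and carry the ending "-like". They are a rebuilt annotation, and the 9 genes took no part in the clustering. Only 11 cells were amacrine-like and 29 retinal ganglion-like, and 54 cells of the clusters B27.2, B27.3 and B27.4 scored best on the amacrine markers without meeting the limits for a name, so that the inner retinal neurons that make dopamine and receive it were thinly sampled. Levels are given in CPM, the gene's part of all UMIs of the class in a library on the usual scale of that name, as mean ± SD over 6 libraries unless another n is named.

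The genes differed widely in how much of them was captured. Over all kept cells there were 39347 UMIs of Drd4, 3921 of Maoa, 905 of Slc18a2, 581 of Ddc, 548 of Drd1, 353 of Drd2, 22 of Slc6a3, 6 of Th and 6 of Drd5. Drd4, Maoa, Slc18a2 and Ddc had enough counts to be fitted in at least 1 class, Drd1 and Drd2 only with all cells summed, and Th, Slc6a3 and Drd5 nowhere.

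**Figure D1:**
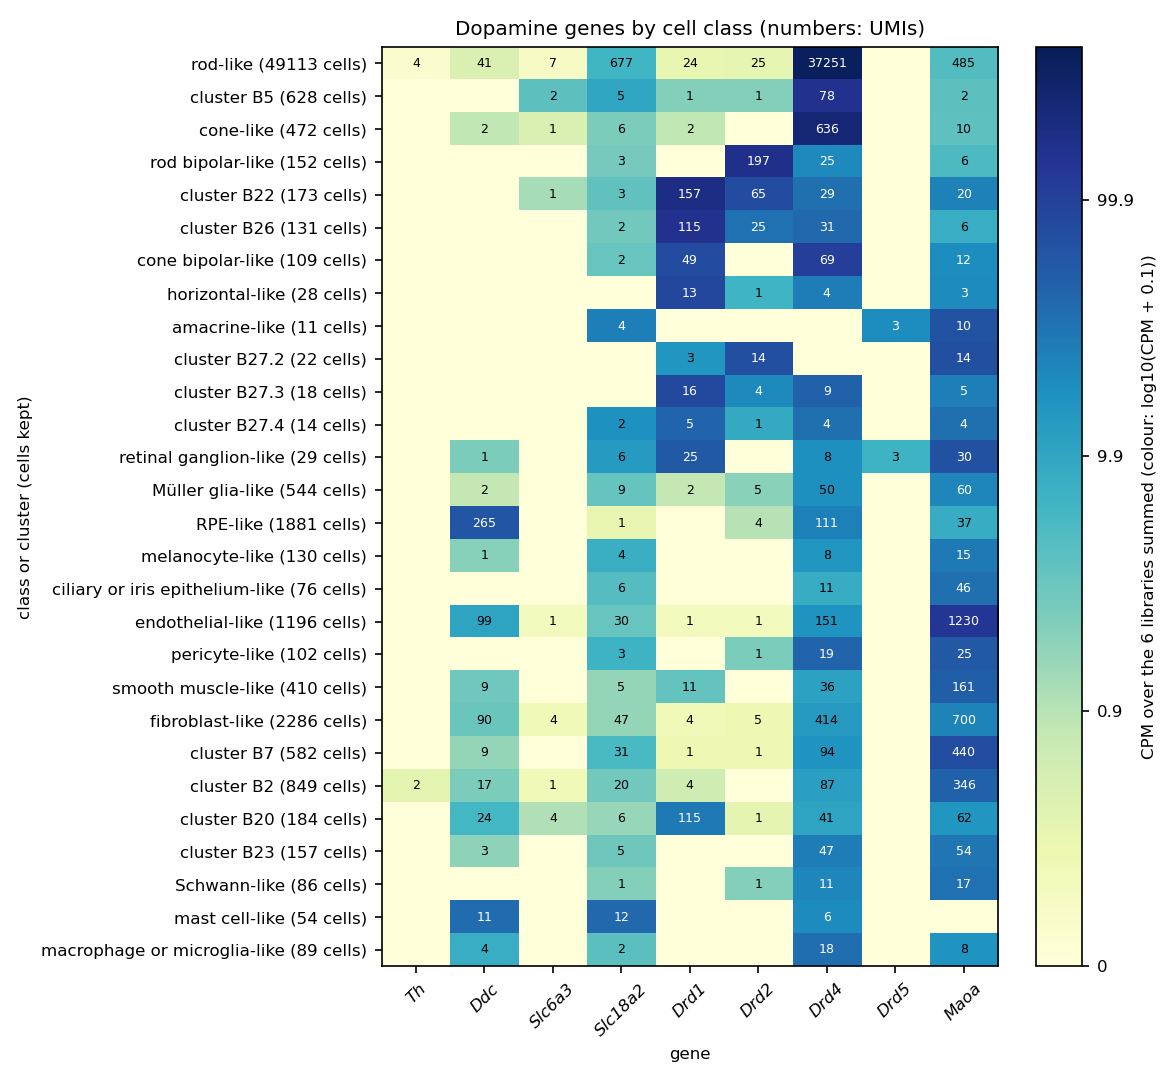
UMIs of the 9 dopamine genes (columns) in cell classes and clusters (rows, with cells kept), where the shade gives CPM over the 6 libraries summed on a log10(CPM + 0.1) scale and the printed number is the UMI count. Drd4 has 37251 UMIs in rods, Drd2 is deepest in rod bipolar-like cells (197 UMIs), Drd1 in clusters B22 and B26 (157 and 115 UMIs), Ddc in RPE-like cells (265 UMIs) and Maoa in endothelial-like cells (1230 UMIs).

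Th, the rate-limiting enzyme and the usual mark of a dopamine neuron, was close to absent. Its 6 UMIs lay in 4 rod-like cells and 2 cells of cluster B2, 1 UMI each. None was in the 11 amacrine-like cells, whose 155821 UMIs allow a level of up to 19.3 CPM at a count of 0. The 54 unnamed cells nearest to amacrine cells also held 0. No dopaminergic amacrine cell was thus seen among these few cells (median of 12892 UMIs in the amacrine-like ones), and an absence of such cells is not shown.

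Ddc, which acts on L-DOPA and on the serotonin precursor alike, had another distribution. RPE-like cells, the pigmented layer behind the photoreceptors, held 265 of its 581 UMIs, at 69.3, 58.1 and 58.2 CPM after tropicamide and 67.9, 53.4 and 53.5 CPM after saline. The 2 groups overlapped and the level was 60.1 ± 6.9 CPM. Endothelial-like cells came next at 11.3 ± 4.9 CPM, lower than RPE-like cells in 6 of 6 libraries (two-sided exact sign-flip permutation test on log2(CPM + 1), p = 0.0312, the smallest that 6 libraries allow, adjusted p = 0.225 over 72 neighbouring pairs). No neighbouring pair of any of the genes could pass after this adjustment.

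Within the endothelial-like class, 98 of the 99 Ddc UMIs were in cluster B10 (436 cells), where Ddc stood at 28.6 CPM with the libraries summed. Cluster B10 carried Mfsd2a (256 CPM), Slco1a4 (1654 CPM) and Abcb1a (1646 CPM), transporters known from vessels with a blood-tissue barrier, and had Plvap, a component of fenestrated endothelium, at 1 CPM. Cluster B8 (536 cells), with Plvap at 2401 CPM, held 0 Ddc UMIs, which allows a level of up to 0.632 CPM. All 6 libraries contributed Ddc UMIs in cluster B10, between 4 in saline library 1 and 38 in tropicamide library 1.

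Smaller amounts of Ddc were seen elsewhere. Fibroblast-like cells held 90 UMIs at 2.89 ± 0.64 CPM, and cluster B20, led by the corneal stroma genes Kera and Angptl7, held 24. The 54 cells of the mast cell-like class are led by the mast cell genes Cpa3, Tpsb2, Mcpt4 and Cma1 and also by Gzma, Nkg7, Ccl5 and Ms4a4b, genes of T or NK cells, so its levels cannot be given to 1 cell type. They held 11 Ddc UMIs (36.9 CPM pooled, exact Poisson interval 18.4 to 65.9) together with 12 of Slc18a2 (40.2 CPM, 20.8 to 70.2). Intervals and floors of this kind cover counting error only. The 49113 rod-like cells held 41 Ddc UMIs, 0.39 ± 0.22 CPM.

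Slc18a2, which fills synaptic vesicles and the granules of mast cells with amines, had 677 of its 905 UMIs in rod-like cells. These were spread thinly, over 636 cells or 1.29% of the class (95% Clopper-Pearson interval 1.20 to 1.40%). The level was 5.43, 5.21 and 5.67 CPM after tropicamide and 8.29, 6.96 and 6.71 CPM after saline. In RPE-like cells 0.0532% had a UMI of Slc18a2 (1 of 1881, 95% Clopper-Pearson interval 0.00135 to 0.296%) at a median of 1457 UMIs per cell against 2090 in rods. With every cell thinned to 1000 UMIs the share was 0.590% in rods and 0 of 1264 RPE-like cells. In endothelial-like cells it was 2.34% unthinned, at a median of 5700 UMIs, and 0.456% thinned. Per 1000 UMIs of the 10 rod markers there were 0.200 Slc18a2 UMIs in rods, 0.0525 in RPE-like cells and 1.62 in endothelial-like cells. The endothelial-like ratio was thus above that of rods. Amacrine-like cells held 4 (25.7 CPM, exact Poisson interval 6.99 to 65.7).

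Slc6a3, the plasma membrane transporter that is largely limited to dopamine neurons, had 22 UMIs scattered over 9 classes, 7 of them in rods. 1 cell had UMIs from at least 2 of Th, Slc6a3 and Slc18a2. It lay in cluster B5 of saline library 3, had 2 UMIs of Slc6a3 and 1 of Slc18a2 among 2825, none of Th, 4 UMIs of amacrine markers and 42 of rod markers.

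**Figure D2:**
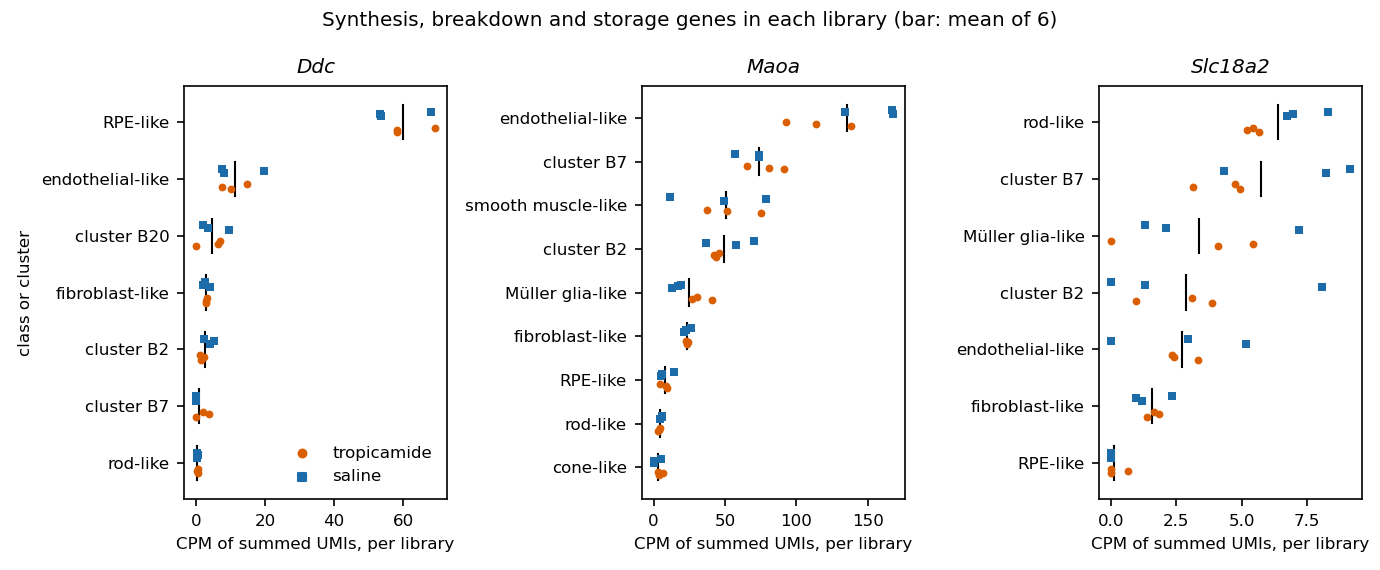
CPM of Ddc, Maoa and Slc18a2 (x axes, linear) in selected classes and clusters, with 1 point per library (circles tropicamide, squares saline) and a bar at the mean of 6. The mast cell-like and amacrine-like classes are not drawn. Neither is cluster B5, which had the highest mean Slc18a2 of the tested classes (14.9 CPM, from 5 UMIs). Ddc in RPE-like cells lies between 53.4 and 69.3 CPM in every library, and Slc18a2 in rods lies below 5.7 CPM in the 3 tropicamide libraries and above 6.7 CPM in the 3 saline libraries.

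Drd4, a D2-family receptor that lowers cyclic AMP in photoreceptors and has a known daily rhythm there, was a photoreceptor transcript. Rod-like cells stood at 345.8, 321.0 and 328.7 CPM after tropicamide and 334.0, 360.4 and 414.2 CPM after saline (mean 351 ± 34). Cone-like cells, the photoreceptors of daylight vision, stood at 201.6, 251.4 and 207.2 CPM and at 242.6, 303.4 and 292.3 CPM (mean 250 ± 42). Rods were above cones in 6 of 6 libraries by 0.50 ± 0.20 on the log2(CPM + 1) scale (exact sign-flip permutation p = 0.0312, adjusted p = 0.225). Cluster B5, whose 628 shallow cells carry rod markers (median 704 UMIs), followed at 158 ± 35 CPM, and all other tested classes were at or under 24.2 CPM (RPE-like).

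The low Drd4 signal outside photoreceptors was set beside the rod transcripts found in the same cells. Rods had 11.0 Drd4 UMIs per 1000 rod-marker UMIs (exact Poisson interval 10.9 to 11.1), fibroblast-like cells 9.59 (8.69 to 10.6), endothelial-like cells 8.16 (6.91 to 9.57), Müller glia-like cells 5.79 (4.29 to 7.63) and RPE-like cells 5.83 (4.79 to 7.02). None of these 4 classes exceeded the rod ratio, and the ratios of Müller glia-like and RPE-like cells lay well below it. Whether the Drd4 of these classes is rod RNA was not tested. Cone-like cells had 23.4 (21.6 to 25.3) and cone bipolar-like cells 29.2 (22.7 to 37.0), above the rod ratio.

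The share of cells with a Drd4 UMI was 46.7% of rods and 60.0% of cones (95% Clopper-Pearson intervals 46.2 to 47.1% and 55.4 to 64.4%), at medians of 2090 and 5328.5 UMIs per cell. After thinning to 1000 UMIs, which left out 8765 rods and 34 cones, the shares were 29.2% and 19.2%, and the order followed the CPM. Fibroblast-like cells, taken as a class of low Drd4, had 15.4% unthinned at a median of 13504 UMIs and 1.65% thinned.

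Among bipolar cells, the interneurons between photoreceptors and ganglion cells, Drd4 was uneven. The cone bipolar-like class stood at 99.3 ± 45.7 CPM with 69 UMIs, of which 65 came from cluster B38 (71 cells, marked by Otor and Grik1) and 4 from cluster B40 (38 cells, marked by Tacr3, Neto1 and Erbb4). Cluster B38 had between 49.2 and 265.0 CPM in all 6 libraries. Rod bipolar-like cells had 9.79 Drd4 UMIs per 1000 rod-marker UMIs, which does not exceed the rod ratio.

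Drd1, the main D1-family receptor, was found in bipolar clusters other than the rod bipolar-like one. Cluster B22 (173 cells, led by Cntn5, with Trpm1 at 1065 CPM, Isl1 and Grm6) held 157 UMIs at 202.2, 194.6 and 260.1 CPM after tropicamide and 131.6, 190.8 and 171.7 CPM after saline. Cluster B26 (131 cells, led by Vsx1, with Grm6 at 570 CPM) held 115 UMIs at 161 ± 60 CPM. Both carry Grm6 and Isl1, genes of ON bipolar cells, but neither reached the score set for a name. The cone bipolar-like class held 49 UMIs at 85.3 ± 71.6 CPM, of which 43 were in cluster B38. The spread over libraries was wide in all 3, and the neighbours in this order overlapped.

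Drd1 had 0 UMIs in the 152 rod bipolar-like cells, which allows a level of up to 2.47 CPM, although these cells were deeper (median 7947.5 UMIs) than those of clusters B22 (3115) and B26 (4876). A Drd1 UMI was seen in 50.3% of cluster B22 cells and 48.1% of cluster B26 cells, and in 0.0489% of rods, 0.184% of Müller glia-like cells and 0.175% of fibroblast-like cells (median 2770 UMIs in Müller glia-like cells and 13504 in fibroblast-like cells). Horizontal-like cells held 13 UMIs (85.5 CPM, exact Poisson interval 45.5 to 146) and retinal ganglion-like cells 25 (56.6 CPM, 36.6 to 83.5). Of the unnamed clusters nearest to amacrine cells, cluster B27.3 (18 cells) held 16 Drd1 UMIs (81.7 CPM, 46.7 to 133), or 75.5 per 1000 rod-marker UMIs, and clusters B27.4 and B27.2 held 5 and 3.

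Outside the retina Drd1 had a further site. Cluster B20 (184 cells, led by A2m, Kera and Angptl7, with Col1a1 and Dcn) held 115 Drd1 UMIs in 73 cells at 28.3 ± 7.0 CPM, present in each of the 6 libraries between 20.1 and 37.4 CPM. Its ratio to rod markers, 22.7 per 1000 (18.7 to 27.2), compares with 0.0926 in fibroblast-like cells and 0.00708 in rods. Kera and Angptl7 are stromal genes known from the cornea. The cornea and the iris-ciliary body had been cut away in the dissection. Every library nevertheless held 14 to 42 corneal or conjunctival epithelium-like cells and 6 to 26 ciliary or iris epithelium-like cells. Whether cluster B20 is corneal tissue left in the cup was not tested.

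Drd2, the receptor that also serves as the autoreceptor of dopamine neurons, was deepest in rod bipolar-like cells, marked by Prkca (10323 CPM), Pcp2 and Sebox. They held 197 of its 353 UMIs in 96 of 152 cells (63.2%, 95% Clopper-Pearson interval 55.0 to 70.8%), at 179.1, 124.6 and 80.1 CPM after tropicamide and 148.6, 216.1 and 200.9 CPM after saline. Tropicamide library 3 was the lowest and the groups overlapped. Cluster B22 held 65 Drd2 UMIs (81.1 ± 43.6 CPM) and cluster B26 held 25 (33.4 ± 26.6 CPM). The 109 cone bipolar-like cells held 0, which allows up to 4.73 CPM, and the 472 cone-like cells held 0, which allows up to 1.12 CPM. Cluster B27.2 (22 cells), nearest to amacrine cells, held 14 Drd2 UMIs (70.7 CPM, exact Poisson interval 38.7 to 119), or 39.2 per 1000 rod-marker UMIs, and clusters B27.3 and B27.4 held 4 and 1. In rods, 0.0509% of cells had a Drd2 UMI.

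The 4 bipolar classes and clusters, 565 cells in all, thus held 58.6% of all Drd1 UMIs, 81.3% of all Drd2 UMIs and 0.391% of all Drd4 UMIs. Drd1 and Drd2 met in clusters B22 and B26. In cluster B22, 22 of 173 cells (12.7%) had UMIs of both, where the product of the single shares is 12.2%, and in cluster B26 it was 13 of 131 cells (9.92%, product 5.51%). Depth varies between cells and raises such joint counts, so nothing more is read from them. Drd5, the second D1-family receptor, had 6 UMIs, 3 in amacrine-like and 3 in retinal ganglion-like cells, and all 6 were in tropicamide libraries. The 3 in retinal ganglion-like cells came from 2 cells of 1 library. Tropicamide libraries held 13, 6 and 1 retinal ganglion-like cells and saline libraries 3, 4 and 2. Amacrine-like cells numbered 2, 2 and 3 against 2, 1 and 1. No difference between the groups is read from so few UMIs. The Drd5 count of 0 in rods allows up to 0.0282 CPM.

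**Figure D3:**
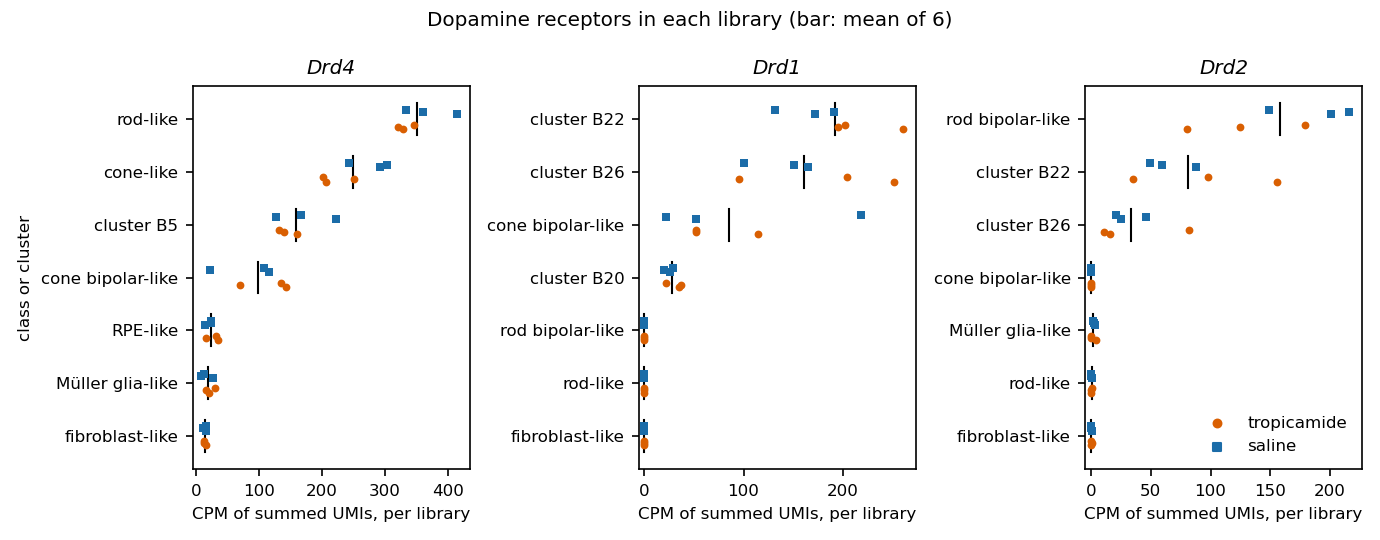
CPM of Drd4, Drd1 and Drd2 (x axes, linear) by class or cluster, with 1 point per library (circles tropicamide, squares saline) and a bar at the mean of 6. The receptors are highest in different rows but share some of them. Drd4 is highest in rods (351 CPM), and Drd1 in clusters B22 and B26 (192 and 161 CPM) with 0 in rod bipolar-like cells. Drd2 is highest in rod bipolar-like cells (158 CPM) with 0 in cone bipolar-like cells. Clusters B22 and B26 also hold Drd2, and cone bipolar-like cells hold both Drd4 and Drd1.

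Most UMIs of Maoa, the breakdown enzyme, lay outside the neural retina. Endothelial-like cells held 1230 of 3921 UMIs at 92.7, 114.0 and 138.4 CPM after tropicamide and 167.2, 134.1 and 167.3 CPM after saline, and the groups overlapped by 1 library on each side. Cluster B7 (582 cells, led by Wnt10a, Ptn and Edn3) followed at 73.8 ± 11.9 CPM, lower in 6 of 6 libraries (exact sign-flip permutation p = 0.0312, adjusted p = 0.225). Smooth muscle-like cells stood at 50.5 ± 24.7 and cluster B2 at 49.6 ± 12.4 CPM, and these 2 neighbours did not differ beyond their spread. Müller glia-like cells stood at 24.6 ± 10.4, fibroblast-like cells at 23.4 ± 1.6, RPE-like cells at 8.10 ± 3.75, rods at 4.60 ± 1.09 and cones at 3.18 ± 2.73 CPM. Inner retinal neurons were few and uneven. The 29 retinal ganglion-like cells held 30 Maoa UMIs, the 11 amacrine-like cells 10 and the 22 cells of cluster B27.2 14. The 28 horizontal-like cells held 3 and the 152 rod bipolar-like cells 6. A low level in all neurons of the retina is therefore not shown.

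Inside the endothelial-like class, Maoa was seen in both kinds of vessel. Cluster B10 held 729 UMIs at 213 CPM and cluster B8, the Plvap-bearing one, 428 UMIs at 90.1 CPM. In every library cluster B10 was above cluster B8, from 164.0 to 281.9 CPM against 63.9 to 124.1 CPM. Maoa thus spanned both clusters, whereas Ddc was nearly all in cluster B10.

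By correlation of log2(CPM + 1) over the 10 tested classes, the genes with patterns most like these were as follows, given as a description since the classes share libraries and free RNA. Closest to Drd4 were C1ql3 (r = 0.995), Uckl1 (0.994) and Crx (0.993), the last a transcription factor of photoreceptors. Ddc was closest to Stox1 (0.976), Vamp8 (0.958) and Degs1 (0.957). Maoa was closest to Ptbp1 (0.985) and Stard13 (0.975), and Slc18a2 to Gm31223 and Gm57355 (both 0.952). For Drd1, whose main cells are too few to be among the 10 classes, the closest was Tceal6 (0.974). Drd1 had 24 UMIs in rods, 11 in smooth muscle-like cells and at most 4 in any other of the 10 classes. Its r thus rests on counts near the floor. All these genes were picked as the closest of 16956 compared.

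Levels of other pathway genes also varied between classes. Gch1, the first enzyme of the tetrahydrobiopterin cofactor that Th needs, stood at 261 ± 30 CPM in endothelial-like cells, at 505 ± 225 CPM in the mixed mast cell-like class and at 0.74 ± 0.37 CPM in rods. Maob, the sister enzyme of Maoa, was at 60.8 ± 9.4 CPM in cluster B7, 40.2 ± 4.3 CPM in fibroblast-like cells and 0.41 ± 0.08 CPM in rods. Adcy1, a calcium-sensitive adenylyl cyclase that belongs to the rhythmic photoreceptor genes linked to Drd4, was at 167 ± 5 CPM in rods and 89.3 ± 11.8 CPM in cones.

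Tropicamide was then compared with saline by edgeR's quasi-likelihood test on UMIs summed per library and class, fitted on all genes of a class with Benjamini-Hochberg adjustment and called at an adjusted p under 0.05. Standard errors are the fold change over the square root of the F statistic. None of the 18 gene and class pairs and none of the 6 genes tested with all cells summed passed. At an unadjusted p under 0.05 there were 4 of the 18 and 3 of the 6, and DESeq2 called 0 of the 18 and 1 of the 6. Over all genes the share at that p was 27.6% in rods, 12.5% in Müller glia-like cells and 6.06% in endothelial-like cells, the classes of the 4, and 16.1% with all cells summed. Drd4 fell in both of the largest rod-like clusters when each was fitted alone, by 0.24 and 0.23 on the log2 scale.

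In all rods summed, Drd4 was lower after tropicamide by 0.14 ± 0.07 (SE, log2 fold change -0.14, edgeR adjusted p = 0.208), with tropicamide library 1 above saline library 1. In this class 10.6% of the 16301 genes tested were called, and 32.1% had groups that do not overlap. Leaving out 1 library at a time moved the Drd4 change from -0.06 (without saline library 3) to -0.21. Rod markers moved with the groups too: the summed level of all 10, none at 0, was 32294.7 to 33707.7 CPM after tropicamide and 30277.2 to 31612.5 CPM after saline. The part of these shifts in the Drd4 result was not tested.

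Rod-like cells came from 9 clusters that held different amounts of Drd4, and the groups drew on them unequally. Cluster A1, the second largest (12660 cells), had more Drd4 (391.3 to 540.9 CPM) than cluster A0, the largest (14969 cells, 283.0 to 374.0 CPM). Cluster A1 made up 27.3 to 37.2% of rods after tropicamide and 17.1 to 23.1% after saline, while cluster A0 made up 25.2 to 28.1% and 32.5 to 37.8%. The cells of cluster A1 had fewer UMIs (medians of 1757.5 to 1938.5) than those of cluster A0 (2627.5 to 2882). The tropicamide libraries thus held a larger share of the rods with more Drd4 in CPM.

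Within cluster A0, Drd4 stood at 300.8, 283.0 and 288.1 CPM after tropicamide and 324.9, 344.8 and 374.0 CPM after saline. All 3 tropicamide libraries were below all 3 saline libraries, and the fall was 0.24 ± 0.05 (log2 fold change -0.24, edgeR adjusted p = 0.00934), beside 8.76% of 13771 genes called and 28.2% with groups that do not overlap. Leaving out 1 library at a time gave changes of -0.20 to -0.28, and the call was lost only without tropicamide library 2 (adjusted p = 0.0673). Rod markers in this cluster summed to 28496.7 to 29011.2 CPM after tropicamide and 26711.8 to 28883.5 CPM after saline, and median mitochondrial UMIs were 0.13 to 0.18% and 0.09 to 0.13%. Their part in the Drd4 fall was not tested.

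Within cluster A1, which was fitted after the result in cluster A0 had been seen, the libraries stood at 443.7, 391.3 and 422.6 CPM after tropicamide and 473.2, 468.2 and 540.9 CPM after saline. The groups again did not overlap, and the fall was 0.23 ± 0.06 (log2 fold change -0.23, edgeR adjusted p = 0.0287), beside 5.88% of 12049 genes called and 25.4% with groups that do not overlap. This call was lost without tropicamide library 2 (adjusted p = 0.188), tropicamide library 3 (0.0532) or saline library 3 (0.121). In the 5 other clusters with enough cells Drd4 did not pass: the change was -0.14 in cluster A2 (adjusted p = 0.257), -0.14 in cluster A3 (0.663), -0.37 in cluster A4 (0.325), -0.54 in cluster A6 (0.0813) and 0.11 in cluster B6 (0.990). Each adjusted p covers the genes of 1 cluster and not the 7 clusters fitted.

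When the 9 clusters were given the same weights in every library, Drd4 in rods came to 341.5, 306.9 and 323.6 CPM after tropicamide and 350.1, 369.4 and 417.4 CPM after saline. The mean was lower in 7 of 9 clusters, and the log2 ratio of the weighted levels was -0.23 against -0.14 for plain sums. A two-sided exact permutation test over the libraries gave p = 0.1, the smallest that 3 against 3 allow.

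**Figure D4:**
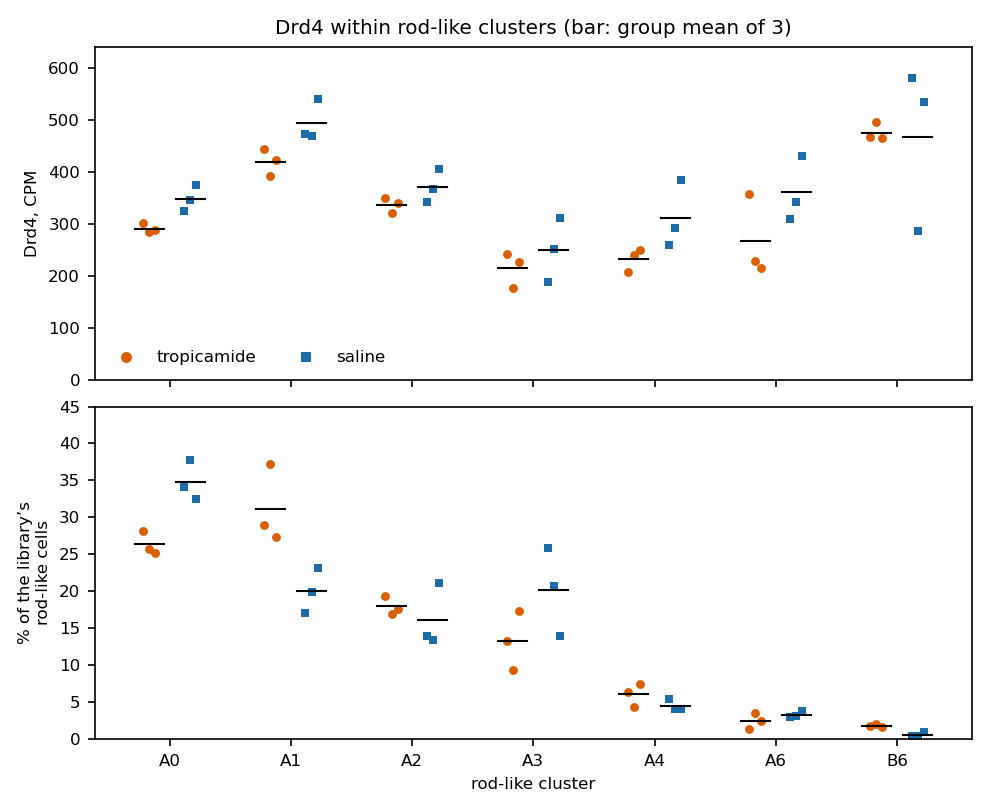
Drd4 in CPM (upper panel) and share of the library's rod-like cells (lower panel, %) for the 7 rod-like clusters with enough cells to be fitted, with 1 point per library and a bar at the group mean of 3. In clusters A0 and A1 every tropicamide library lies below every saline library (300.8 against 324.9 CPM and 443.7 against 468.2 CPM at the nearest), while cluster A1 is a larger share of rods after tropicamide (at least 27.3%) than after saline (at most 23.1%).

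Drd4 did not pass in the other classes that were fitted. Cones differed by -0.33 ± 0.17 (adjusted p = 0.994, with 0.0274% of genes called) and cluster B5 by -0.34 ± 0.40 (0.770, with 2.53% called). RPE-like cells differed by 0.47 ± 0.44 (0.920, with 0.118% called), endothelial-like cells by 0.21 ± 0.38 (1.00, with 0.0188% called), fibroblast-like cells by -0.13 ± 0.20 (0.834, with 0.0231% called) and cluster B7 by 0.72 ± 0.40 (0.768, with 0.0779% called). Drd4 in RPE-like, endothelial-like and fibroblast-like cells did not exceed the rod ratio given above, and no such ratio is given for cluster B7. The change in cluster B7 less that in rods was 0.75 ± 0.26 (limma adjusted p = 0.318).

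For Slc18a2 in rods the 3 tropicamide libraries (5.21 to 5.67 CPM) lay below the 3 saline libraries (6.71 to 8.29 CPM), with a change of -0.41 ± 0.14 (edgeR adjusted p = 0.0822). Maoa in rods stood at 4.61, 3.49 and 3.22 CPM after tropicamide and 5.57, 5.97 and 4.75 CPM after saline, a change of -0.53 ± 0.18 (edgeR adjusted p = 0.0845). Groups that do not overlap occur in 32.1% of the genes of this class. Without saline library 3 Maoa passed (adjusted p = 0.0455). The 9 endothelial markers, none at 0, summed to 47.3 to 76.1 CPM in tropicamide rods and 35.8 to 62.1 CPM in saline rods and these ranges overlapped. Of the 26 marker lists of other cell types, 6 were higher in every tropicamide library than in every saline library of rods and 1, the amacrine list, was lower. Fibroblast markers summed to 360.2 to 489.7 CPM after tropicamide and 167.7 to 327.5 CPM after saline, melanocyte markers to 40.03 to 52.6 and 24.01 to 33.9 CPM, and RPE markers to 135.4 to 329.0 and 43.2 to 83.9 CPM. Their part in the rod values was not tested.

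Maoa in endothelial-like cells was lower by a log2 fold change of -0.50 ± 0.16 (edgeR adjusted p = 0.615). The groups drew unequally on its clusters: cluster B10, with more Maoa, was 26.2, 30.4 and 50% of the class after tropicamide and 55.3, 52.1 and 38.2% after saline. Within cluster B10 Maoa stood at 204.3, 164.0 and 170.5 CPM after tropicamide and 225.2, 167.8 and 281.9 CPM after saline, and within cluster B8 at 63.9, 98.9 and 124.1 against 104.3, 81.4 and 93.8 CPM. The groups overlapped in both clusters.

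In Müller glia, the support cells of the retina, Maoa stood at 30.5, 27.2 and 41.0 CPM after tropicamide and 19.5, 16.9 and 12.6 CPM after saline. The groups did not overlap, as in 17.0% of the genes of this class, and the change of 0.92 ± 0.40 did not pass (edgeR adjusted p = 0.335, with 1.79% of genes called). Beside it, the 9 fibroblast markers in these cells, none at 0, summed to 295.3 to 2106.0 CPM after tropicamide and 191.0 to 276.9 CPM after saline, and the 9 endothelial markers to 2226.9 to 2489.1 and 2761.0 to 3122.8 CPM. Their part in the Maoa difference was not tested. The class joins cluster B11 (median 6661.5 UMIs, 0.97% mitochondrial) and cluster B21 (1013 UMIs, 9.32%), and cluster B21 was 42.7 to 48.8% of its cells after tropicamide and 20.7 to 26.5% after saline. Cluster B11 held 59 of the 60 Maoa UMIs, at 34.8, 29.95 and 44.0 CPM after tropicamide and 20.3, 17.6 and 13.3 CPM after saline, without overlap. These are nearly the same UMIs as those of the class. The share of all genes without overlap is not given for cluster B11, so nothing more is read from it. The difference between the Müller glia-like and the rod change was 1.34 ± 0.40 (limma adjusted p = 0.138), and none of the 12 such differences passed (2 had an unadjusted p under 0.05).

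Maoa in the other classes gave 0.07 ± 0.41 in smooth muscle-like cells, where 0.0% of 7964 genes were called by edgeR (291 had an unadjusted p under 0.05, and DESeq2 called 0). The change was -0.32 ± 0.22 in cluster B2 (0.0231% called), 0.14 ± 0.18 in cluster B7 and -0.04 ± 0.13 in fibroblast-like cells. The last is the tightest of these values, with libraries of 23.0, 24.1 and 23.6 CPM after tropicamide and 25.8, 22.5 and 21.0 CPM after saline.

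Ddc did not pass in any class. RPE-like cells gave 0.08 ± 0.24 (adjusted p = 0.973), endothelial-like cells 0.20 ± 0.41 (1.00) and fibroblast-like cells -0.06 ± 0.32 (0.966). Cluster B10 held nearly all Ddc of the endothelial-like class. It was 26.2, 30.4 and 50% of that class after tropicamide and 55.3, 52.1 and 38.2% after saline. The part of these shares in the endothelial-like Ddc value was not tested. With all cells summed Ddc stood at 3.97, 4.03 and 3.87 CPM after tropicamide and 1.23, 1.68 and 2.39 CPM after saline. The difference of 1.18 ± 0.26 did not pass in edgeR (adjusted p = 0.209), where 0.00501% of 19974 genes were called and 21.4% had groups that do not overlap. DESeq2 called it (1.18, adjusted p = 0.00531, with 2.41% of 20706 genes called).

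The cells that hold Ddc differed in number between the groups. RPE-like cells were 3.22, 5.72 and 4.98% of cells after tropicamide and 1.05, 0.744 and 1.93% after saline, and they gave 43, 91 and 86 of the 130, 163 and 127 Ddc UMIs after tropicamide and 14, 9 and 22 of the 33, 45 and 83 after saline. In such sums more RPE cells and more Ddc per cell cannot be told apart, and the value within RPE-like cells is the one given above. Drd4 (-0.40 ± 0.14, adjusted p = 0.273) and Slc18a2 (-0.50 ± 0.16, adjusted p = 0.265) were lower in the same sums with groups that did not overlap, where rods were 72.3 to 83.3% and 81.3 to 91.5% of cells. Drd2 (-0.37 ± 0.39), Drd1 (0.25 ± 0.37) and Maoa (0.25 ± 0.24) overlapped.

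In the classes with fewer cells 14 pairs were compared by a two-sided exact permutation test, which cannot go below p = 0.1. Drd1 in cluster B22 was 219 ± 36 CPM after tropicamide and 165 ± 30 CPM after saline (SD, n = 3 each), without overlap (exact permutation p = 0.1, adjusted p = 0.700). Maoa in cluster B23 was 36.1 ± 5.5 and 18.8 ± 11.1 CPM, also without overlap (exact permutation p = 0.1, adjusted p = 0.700), and the other pairs overlapped. The share of all genes without overlap is not given for these clusters, so nothing is read from it. Drd2 in rod bipolar-like cells was 128 ± 50 and 189 ± 35 CPM (exact permutation p = 0.2, adjusted p = 0.891). These comparisons cannot reach the threshold at this number of libraries.

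**Figure D5:**
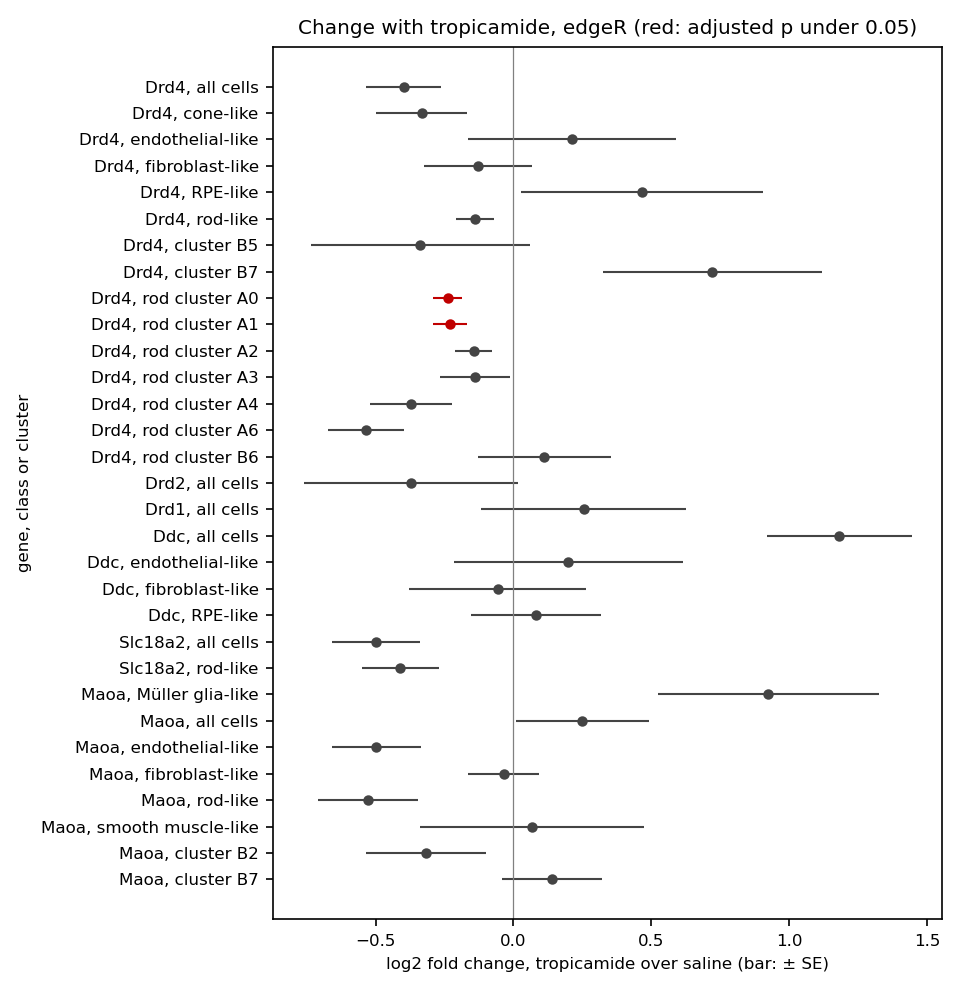
Log2 fold change of tropicamide over saline (x axis, points, with bars of ± 1 SE) for every dopamine gene and class that could be fitted with edgeR, and for Drd4 within 7 rod-like clusters. The red points, Drd4 in clusters A0 and A1 (-0.24 and -0.23), are the ones with an adjusted p under 0.05, and Ddc in all cells has the highest value (1.18) without passing.

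Of the pathway genes fixed for comparison, only some in rods passed. Among the breakdown and downstream enzymes Aldh2, a mitochondrial aldehyde dehydrogenase, rose in rods from 2.36, 2.09 and 3.17 CPM after saline to 5.65, 6.93 and 3.98 CPM after tropicamide (log2 fold change 1.13 ± 0.24, edgeR adjusted p = 0.0140). Aldh2 was at 577 ± 34 CPM in RPE-like cells, and the 9 RPE markers, none at 0, summed to 135.4 to 329.0 CPM in tropicamide rods and 43.2 to 83.9 CPM in saline rods. The part of that RNA in the Aldh2 result was not tested. The Aldh2 call was lost without tropicamide library 2 (adjusted p = 0.0773), saline library 1 (0.0552) or saline library 2 (0.0510), and in cluster A1 alone (0.211).

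Among the 6 rhythmic photoreceptor genes linked to Drd4, all fitted in rods, none rose and 2 fell. Over all 16301 genes tested in rods 10.6% were called, 935 higher and 795 lower, and 32.1% had groups that do not overlap. With 6 genes, no result about the list is drawn from this count. Nr4a1, an immediate early gene for an orphan nuclear receptor, fell from 43.7, 41.1 and 56.1 CPM after saline to 33.1, 31.1 and 24.4 CPM after tropicamide (-0.66 ± 0.12, edgeR adjusted p = 0.00821). Pde8b, a cyclic AMP phosphodiesterase, fell from 672.5, 618.5 and 581.7 CPM to 531.8, 526.8 and 514.9 CPM (-0.24 ± 0.06, adjusted p = 0.0248). The Nr4a1 call was kept when any 1 of the 6 libraries was left out, and within clusters A0 (-0.65, adjusted p = 0.00369) and A1 (-0.73, adjusted p = 0.00334). The Pde8b call was lost without tropicamide library 1 (adjusted p = 0.0803), 2 (0.0970) or 3 (0.0629) and without saline library 1 (0.0656) or 2 (0.0671). Adcy1 did not pass (-0.03 ± 0.05, adjusted p = 0.696), nor did Npas2, Ppargc1a and Aanat. The median change of the list was -0.18 beside -0.0032 over all genes tested in rods.

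None of the 13 fitted receptor signalling genes, of the 6 cofactor genes (Gch1 0.69 ± 0.49, adjusted p = 0.386), of the 3 other amine transporters or of the 1 transcription factor passed in rods. The medians of these 4 lists were -0.03, 0.01, -0.22 and 0.11. No gene of the 6 lists passed in any other class or with all cells summed. These lists and genes were compared with earlier results of the data in view.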

How the data were processed

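The files hold UMI counts per gene and cell barcode, deposited without normalization. Per the file headers, Cell Ranger 8.0.1 wrote them. The submitters' processing notes also name STAR and GRCm39. The sources used here name no annotation release, intron setting or cell caller. The extraction protocol in the labels, which describes bone, was not used.

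A barcode needed 500 UMIs, 300 genes and a mitochondrial share no higher than 20% (416 failed), and 5922 were removed as doublets, 0.8% per 1000 barcodes, scored against 2 simulated doublets per barcode with 50 neighbours. Counts scaled to 10000 per cell, 2000 variable genes without the 9 genes, 30 principal components, 20 neighbours and Leiden resolution 1 gave 60 clusters. These were named from 27 marker lists at a score of at least 1.8 with at least 3 markers, limits set after the clusters were seen, which left 12 unnamed. Clusters of the first round start with A and those of the second, run on the cells of clusters low in rod markers, with B. Free RNA was not removed.

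UMIs were summed per library and class. The 10 classes with 20 or more cells per library were tested with edgeR 4.0.16 (TMM, filterByExpr, quasi-likelihood, Benjamini-Hochberg) in R 4.3.3, and differences from rods with limma 3.58.1. The pool of 4 eyes is the replicate. Alternatives were DESeq2 1.42.0 (its size factors and its test), a replicate block, testing all genes with a count, leaving out each library, a stricter cell filter (1000 UMIs, 500 genes, 10%), no doublet removal, levels as means over cells, a prior count of 0.5 in limma and single rod clusters. The fits of rod clusters other than the largest, the equal cluster weights and the tests of small classes were chosen after seeing the data. The floor of a count of 0 is 3 counts, intervals are at 95%, and PCR and capture error are not in them. All 9 genes were named, and pathway genes past the threshold, up to 3 per list and class, with Gch1, Adcy1 and Maob always examined. Some genes that this rule names are not reported here. The genes and lists were chosen with earlier results of these data known. edgeR was tested on simulated data. Python 3.11.15 was used with scipy 1.17.1, leidenalg 0.10.2 and matplotlib 3.10.9.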

Additional observations from a re-analysis of the deposited data

How the results depend on the processing

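Th, Slc6a3 and Drd5 had only 6, 22 and 6 UMIs in all kept cells, too few to be fitted, and the 11 amacrine-like cells show no absence. Drd4 was highest in rods, Ddc in RPE-like and Maoa in endothelial-like cells, among the tested classes, under every alternative run for levels. Of 324 alternative levels 315 moved by less than 1 SD, and the 9 others were all Drd4 outside photoreceptors, for example 48.1 CPM in RPE-like cells without doublet removal. The count of dopamine genes called within a class went from 0 to 1 without saline replicate 3 (Maoa in rods), and was 0 to 1 over the libraries left out. It was 1 in the largest rod-like cluster alone and 1 in cluster A1 alone (Drd4 in both), and 0 to 1 there with 1 library left out. With all cells summed it went from 0 to 1 in the DESeq2 test (Ddc), which called 500 genes against 1 in edgeR.

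The replicate numbers of the libraries did not pair them (same-number correlations in rods of -0.04, -0.11 and -0.26). With the replicate block no dopamine gene was called: the rod values were -0.14 for Drd4 (edgeR adjusted p = 0.214), -0.40 for Slc18a2 (0.128) and -0.52 for Maoa (0.105), Ddc in all cells was 1.23 (0.600), and Ddc in fibroblast-like cells turned to 0.012. The block called 1194 genes in rods in place of 1730, and 224 in Müller glia in place of 127. Leaving out 1 library gave 426 to 2406 genes in rods and 21 to 151 in Müller glia, and the stricter cell filter gave 30 in Müller glia. In the other classes, with 0 to 45 genes called, the counts also moved by over 1.5 times: without the low-count filter fibroblast-like cells had 637 in place of 3 and endothelial-like cells 169 in place of 2.

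The values that turned sign did not pass a threshold in either setting, for the genes reported here, and the cause was not tested. Without doublet removal Drd4 was 0.16 in fibroblast-like and -0.065 in RPE-like cells, and without the low-count filter 0.0023 in cluster B5. Within single rod clusters, chosen after seeing the data, Drd4 was 0.11 in cluster B6 and Slc18a2 0.20 in cluster A2. Leaving out 1 library at a time gave ranges that crossed 0. For Drd4 these were -0.039 to 0.45 in endothelial-like cells, for Ddc -0.16 to 0.46 in endothelial-like and -0.22 to 0.29 in fibroblast-like cells, and for Drd1 -0.044 to 0.55 in all cells. For Maoa they were -0.12 to 0.050 in fibroblast-like cells, -0.18 to 0.33 in smooth muscle-like cells and, over all rods and the clusters A0 and A1, -0.79 to 0.26, where both positive values (0.13 and 0.26) are from cluster A1. For the change against that in rods they were -0.027 to 0.76 (Drd4) and -0.20 to 0.34 (Maoa) in endothelial-like cells, -0.11 to 0.21 (Drd4) in fibroblast-like cells, -0.14 to 0.38 (Maoa) in cluster B2 and -0.25 to 0.028 (Drd4) in cluster B5.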

Other observations

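The barcodes removed as doublets held 6881 UMIs of Drd4, 585 of Maoa, 178 of Slc18a2, 70 of Ddc, 55 of Drd2, 48 of Drd1, 3 of Slc6a3, 1 of Th and 0 of Drd5. A single removed barcode, in tropicamide library 1, had UMIs of 2 of the genes Th, Slc6a3 and Slc18a2. It held 1 UMI of Slc6a3 and 1 of Slc18a2 among 8948, none of Th and 26 of amacrine markers, and lay nearest to the retinal ganglion-like class.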
